A study of Mus musculus with 2 samples.

Results

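The Gimap genes encode GTPases of immunity-associated proteins, a family of GTP-binding proteins of vertebrates that is best known from lymphocytes. The 8 mouse genes measured here (Gimap1, Gimap3, Gimap4, Gimap5, Gimap6, Gimap7, Gimap8 and Gimap9) are 8 of the 32285 genes listed in each deposited table. They were chosen by name, and the family was taken up because Gimap5 and Gimap6 had stood out in T and NK cells of these libraries. Their levels in T and NK cells against phagocytes are therefore given as a description, with no test. Members of the family sit on membranes of lysosomes, the endoplasmic reticulum, the Golgi apparatus and lipid droplets, where they bind GTP and influence how long lymphocytes survive. Loss of Gimap5 in mice and rats depletes T cells, loss of Gimap1 depletes mature T and B cells, and Gimap6 binds an Atg8-type protein of the autophagy machinery.

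MC38 is a colon carcinoma line of mice. Its tumours were taken on day 21, and their immune cells were sorted by flow cytometry straight after dissection. There was a single group with 2 replicates, each 1 library made with a droplet kit that tags the 3′ ends of polyadenylated RNA. The labels name no treatment, mouse strain, genotype or age, and they do not say whether the replicates came from separate animals. The C1q macrophages of replicate 1 held 1028 Xist UMIs and 0 UMIs of 4 Y-linked genes, whereas replicate 2 had 0 Xist and 97 Y-linked UMIs in this class. The libraries differed in sex, so their macrophages cannot have come from the same animal. Sex and every other difference between the 2 libraries cannot be told apart. A UMI is a molecular tag that marks 1 captured RNA molecule. The libraries held 5688000 and 5862342 UMIs in 2749 and 2937 cell barcodes, with medians of 1309 and 1375 UMIs and 0 shared barcodes. The filters kept 2388 and 2837 barcodes, which together held 455 and 722 UMIs of the 8 genes. The sparse counts set the precision, and the 95% intervals below are exact Poisson or binomial intervals that cover counting error only.

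Barcodes were put in classes from raw UMIs of marker genes, without any Gimap gene. In replicates 1 and 2 there were 115 and 304 Cd3-positive barcodes, 22 and 4 Ncr1-positive barcodes (Ncr1 marks NK cells and related innate lymphocytes), 14 and 9 Siglech-positive barcodes (Siglech marks plasmacytoid dendritic cells), 27 and 17 other dendritic barcodes, 992 and 658 C1q macrophages, 16 and 18 neutrophils, and 536 and 851 Ptprc-negative barcodes. Ptprc encodes CD45, the leukocyte surface antigen, so the last class holds barcodes that go against the labelled cell type. All 12 T cell markers were detected in Cd3-positive barcodes of both libraries, with a summed level of 2566 and 2665 CPM. CPM are the UMIs of a gene or gene set per 1000000 UMIs of the class sum. The 9 NK cell markers summed to 2975 and 4725 CPM in Ncr1-positive barcodes, where 9 and 7 of them were detected from 163 and 29 UMIs. These barcodes also held 15932 and 6192 CPM of 8 macrophage markers. At least 5 UMIs of C1qa, C1qb and C1qc were found in 10 of the 22 and 2 of the 4. B cells are another known site of Gimap expression. In Cd3-positive barcodes 1 of 5 B cell markers was detected, at 12.0 and 8.89 CPM, and Cd79a, Ms4a1 and Pax5 were at 0. The B cell markers summed to 12.5 and 16.9 CPM in C1q macrophages and to 6.38 and 6.98 CPM in barcodes of no class, where 0 barcodes held 2 or more UMIs of these markers. Of the 5 endothelial markers, 2 and 4 were detected in Cd3-positive barcodes, at 6.0 and 32.6 CPM.

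The 8 genes lie side by side on chromosome 6 between positions 48647234 and 48770851 of GRCm38 (mm10), a span of 123.6 kb in the GENCODE M21 annotation. Along the plus strand the order is Gimap8, Gimap9, Gimap4, Gimap6, Gimap7, Gimap1, Gimap5 and Gimap3, with 6 genes on the plus strand and Gimap6 and Gimap3 on the minus strand. Gimap1os, a noncoding transcript, overlaps exons of Gimap1 on the opposite strand, and how the authors counted strand is not given in the sources used here. A read-through gene, Gm28053, overlaps exons of Gimap7, Gimap1 and Gimap5 in the annotation and is not among the genes listed in the tables. None of the 31-base stretches in the last 400 bases of the 8 genes' transcripts occurred in another listed gene of the surrounding region of chromosome 6. The members' 3′ ends could thus be told from each other. Genes elsewhere in the genome were not compared.

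RefSeq promoter sequences (GRCm38.p6, 250 bases before to 50 after a start) were found for all 8 members, with 9 entries. The following 4 stretches of 150 bases end at the RefSeq start and are shown for the member with the most UMIs in Cd3-positive barcodes (Gimap4, chr6:48684428-48684577, plus strand), the pair that drew attention to the family (Gimap5, chr6:48746047-48746196, plus strand, and Gimap6, chr6:48708245-48708394, minus strand) and the member that stood apart outside leukocytes (Gimap9, chr6:48675985-48676134, plus strand). Capitals mark a match, on either strand, to GGAAGT, letters bound by ETS factors, or to TGTGGT, letters bound by RUNX factors. Both kinds of factor act in lymphocytes.
Gimap4: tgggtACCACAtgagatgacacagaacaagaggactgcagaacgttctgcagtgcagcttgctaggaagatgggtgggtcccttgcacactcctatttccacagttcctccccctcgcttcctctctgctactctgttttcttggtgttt
Gimap5: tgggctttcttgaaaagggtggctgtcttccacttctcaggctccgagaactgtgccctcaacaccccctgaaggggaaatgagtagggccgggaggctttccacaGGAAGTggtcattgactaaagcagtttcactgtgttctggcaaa
Gimap6: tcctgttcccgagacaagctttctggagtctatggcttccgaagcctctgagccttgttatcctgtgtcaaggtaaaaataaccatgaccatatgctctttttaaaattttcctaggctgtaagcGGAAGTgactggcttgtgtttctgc
Gimap9: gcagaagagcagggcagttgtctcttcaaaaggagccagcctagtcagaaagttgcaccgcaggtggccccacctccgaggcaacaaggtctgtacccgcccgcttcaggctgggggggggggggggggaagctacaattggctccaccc
The ETS letters of Gimap5 and Gimap6 begin 44 and 25 bases before the start, and the RUNX letters of Gimap4, read on the other strand, begin 145 bases before it. Over the 300-base windows, GGAAGT occurred in 4 of the 9 member promoters (Gimap1, Gimap5, Gimap6 and Gimap9) against 23.8% of all 32851 promoters. The letters TGTGGT occurred in 3 of 9 (Gimap1, Gimap4 and Gimap7) against 16.8%. The Gimap9 match lies outside the printed stretch, and the stretches of Gimap4 and Gimap9 reach into the gene as GENCODE M21 starts it. These matches describe letters and say nothing of which factor was bound.

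Summed over the 8 genes, Cd3-positive barcodes held 199 of 333937 UMIs in replicate 1 and 342 of 674625 in replicate 2. That is 596 (95% interval 516 to 685) and 507 (455 to 564) CPM, a mean of 551 ± 62.9 (SD, n = 2). Ncr1-positive barcodes held 602 (415 to 846) CPM in replicate 1. In replicate 2 the 4 Ncr1-positive barcodes held 6 Gimap UMIs, or 978 CPM (359 to 2128). The lymphocyte classes overlapped in both libraries, and the planned test between them was not made because replicate 2 had so few Ncr1-positive barcodes.

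C1q macrophages held 39.1 (30.8 to 49.1) and 96.0 (77.3 to 118) CPM, a mean of 67.6 ± 40.2 (SD, n = 2). Their intervals did not overlap between the libraries, yet every value was below that of Cd3-positive barcodes, by 15.2-fold in replicate 1 and 5.28-fold in replicate 2. Siglech-positive barcodes held 150 (31 to 439) and 181 (37.3 to 528) CPM, from 3 UMIs in each library. Other dendritic barcodes held 45.5 (12.4 to 116) and 101.3 (20.9 to 296), from 4 and 3 UMIs. Neutrophils held 26.6 (0.674 to 148) and 173 (47.3 to 444), from 1 and 4 UMIs. All 4 UMIs of replicate 2 lay in the 5 of 18 neutrophil barcodes that also held a Cd3 UMI, and the other 13 held 0. The Gimap UMIs of other dendritic barcodes lay partly in barcodes with a Cd3 UMI, at 2 of 4 and 1 of 3. In both libraries the intervals of these sparse classes overlapped those of C1q macrophages, and they overlapped each other, so no order among them can be read. Ptprc-negative barcodes had the lowest values, 7.94 (4.54 to 12.9) and 8.01 (5.08 to 12.0) CPM from 16 and 23 UMIs, with intervals below those of C1q macrophages.

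**Figure D1:**
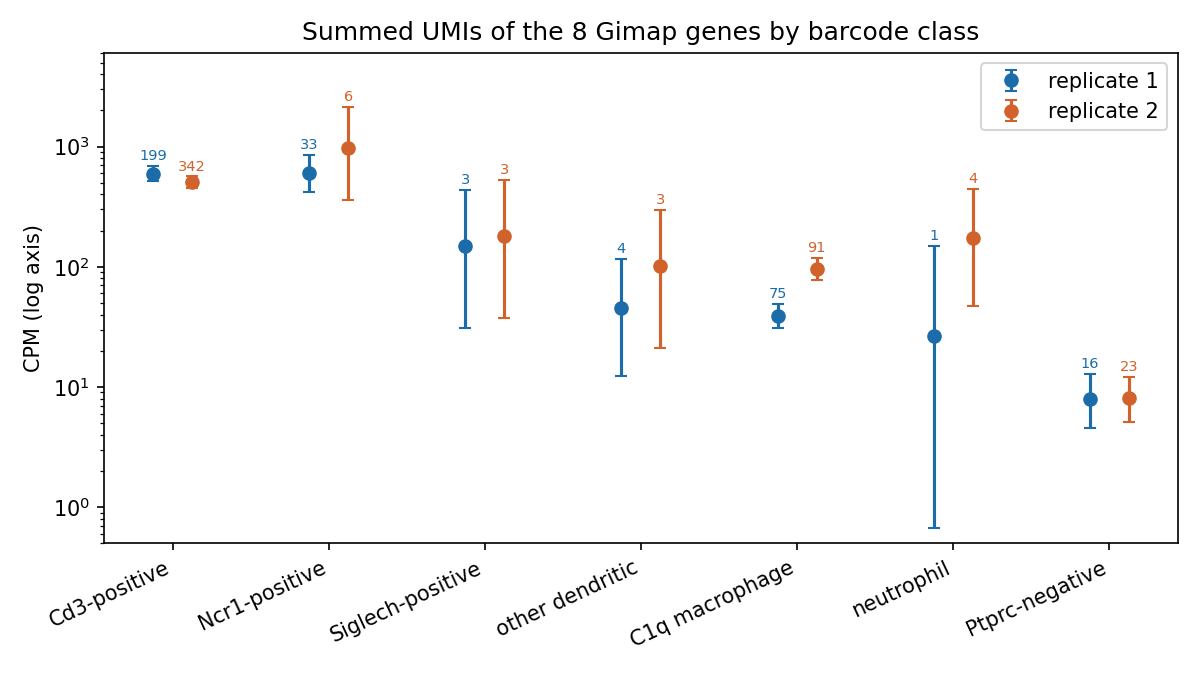
Summed CPM of the 8 Gimap genes (vertical log axis) in 7 barcode classes, 1 point per library with its exact Poisson 95% interval. Cd3-positive barcodes sit at 596 and 507 in replicates 1 and 2, C1q macrophages at 39.1 and 96.0, and Ptprc-negative barcodes at 7.94 and 8.01.

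Among Cd3-positive, C1q macrophage and Ptprc-negative barcodes, the share with any Gimap UMI was highest in the first class and lowest in the last. At full depth it was 71.3% of Cd3-positive barcodes in replicate 1 and 61.8% in replicate 2. After each barcode was thinned to 800 UMIs, which left out 8 and 25 shallower Cd3-positive barcodes, the shares were 36.4% (27.4 to 46.3) and 34.4% (28.9 to 40.3). At the same depth they were 3.98% and 6.36% of C1q macrophages, with 188 and 92 barcodes left out. They were 0.933% and 0.705% of Ptprc-negative barcodes, the class taken as background, with 0 left out. Of the 22 and 4 Ncr1-positive barcodes, 20 and 4 were deep enough, and 6 and 3 of these held a Gimap UMI. Within Cd3-positive barcodes, 33 and 116 held no member, 38 and 99 held 1, 21 and 73 held 2, and 23 and 16 held 3 or more. The most members seen in 1 barcode were 6 in replicate 1 and 5 in replicate 2.

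Each member was detected in Cd3-positive barcodes of both libraries. The following levels are CPM and were not divided by transcript length, so they are compared between classes and libraries and not between genes. Gimap4, a protein that speeds up the death of T cells after a death signal, was at 138 (100.9 to 184) in replicate 1 and 136 (110 to 167) in replicate 2. The libraries differed by less than the counting error for Gimap4. Gimap1, needed for mature lymphocytes, was at 108 (75.5 to 149) and 81.5 (61.4 to 106). Gimap5, the lysosomal member needed for T cell survival, was at 86.8 (58.2 to 125) and 57.8 (41.1 to 79.0). Gimap3, a close relative of Gimap5, was at 89.8 (60.6 to 128) and 54.9 (38.6 to 75.6). Replicate 1 was the higher library for Gimap1, Gimap3 and Gimap5, with overlapping intervals. Gimap6, the binding partner of the autophagy machinery, was at 68.9 (43.7 to 103) and 72.6 (53.7 to 96.0). Gimap7 was at 35.9 (18.6 to 62.8) and 62.3 (44.9 to 84.2), with the higher value in replicate 2. Gimap9 was at 41.9 (22.9 to 70.3) and 28.2 (17.0 to 44.0), and Gimap8, the member with the most GTP-binding domains, was at 26.9 (12.3 to 51.2) and 13.3 (6.1 to 25.3). For all 8 members the intervals of the 2 libraries overlapped.

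In Ncr1-positive barcodes of replicate 1, Gimap4 had 11 UMIs, Gimap1 had 8, Gimap3 and Gimap7 had 4 each, Gimap6 had 3, Gimap5 had 2 and Gimap9 had 1. Gimap8 had 0, which allows a level of up to 54.7 CPM at a floor of 3 counts (exact Poisson upper bound 67.3). In replicate 2, Gimap1, Gimap3, Gimap4, Gimap5, Gimap7 and Gimap9 had 1 UMI each. Gimap5 was thus at 36.5 (4.42 to 132) CPM in Ncr1-positive barcodes of replicate 1, an interval that overlaps its interval in Cd3-positive barcodes.

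**Figure D2:**
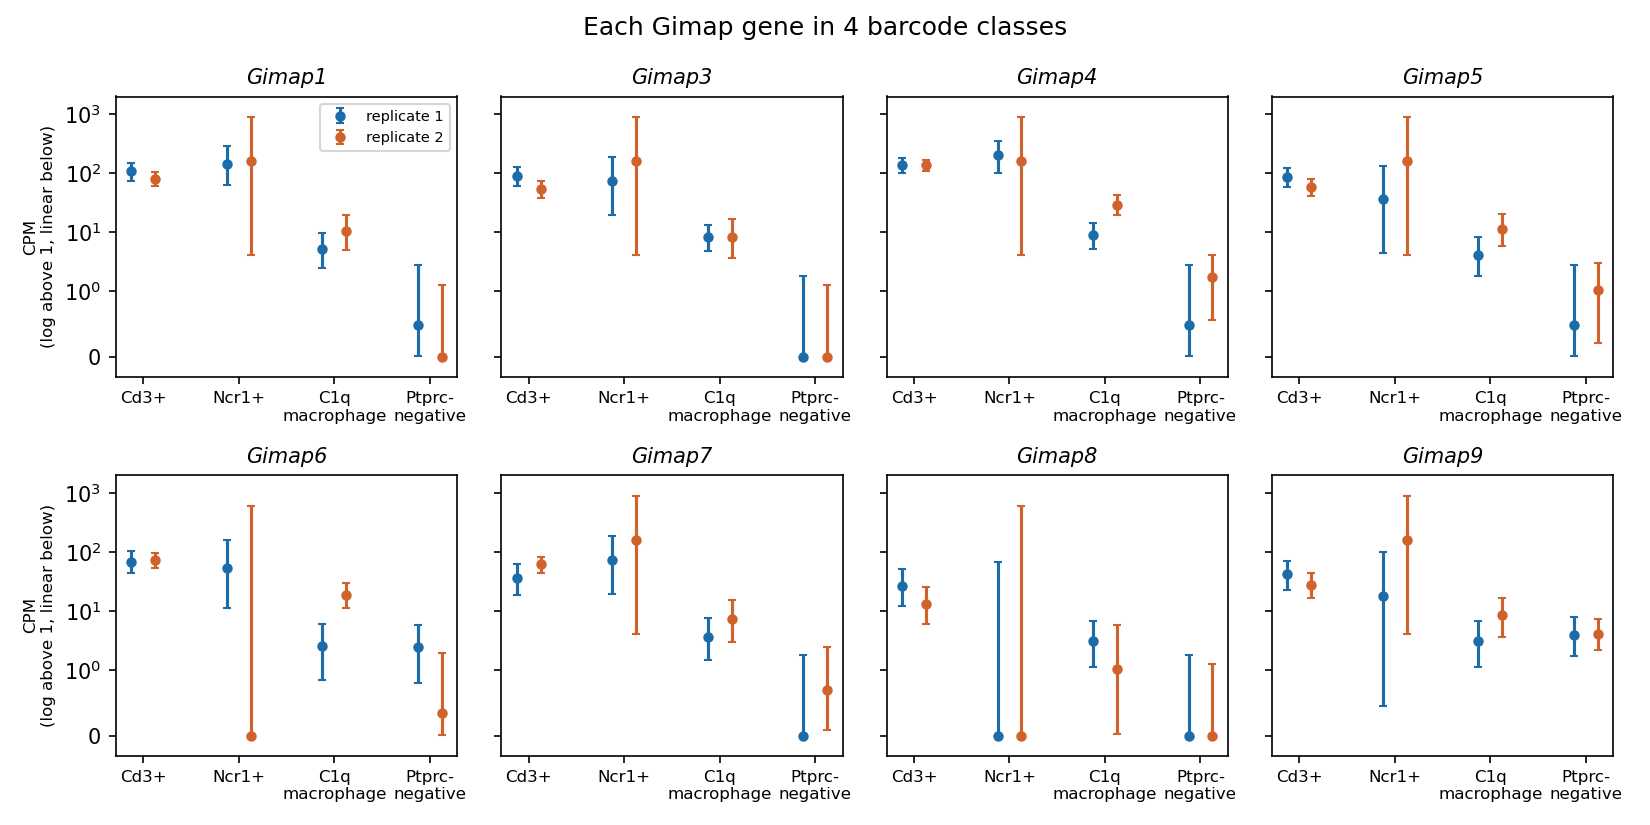
CPM of each Gimap gene (vertical axis, log above 1 and linear below) in Cd3-positive, Ncr1-positive, C1q macrophage and Ptprc-negative barcodes, 1 point per library with its exact Poisson 95% interval. Gimap4 sits at 138 and 136 in Cd3-positive barcodes, and Gimap9 is the member that stays near 4 CPM (3.97 and 4.18) in Ptprc-negative barcodes.

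Every member was also higher in Cd3-positive barcodes than in C1q macrophages of the same library. The ratio of the levels ranged from 8.61-fold (Gimap8) to 26.4-fold (Gimap6) in replicate 1 and from 3.34-fold (Gimap9) to 12.7-fold (Gimap8) in replicate 2. Gimap6 was at 2.61 (0.847 to 6.09) CPM in C1q macrophages of replicate 1 and at 19.0 (11.2 to 30.01) in those of replicate 2. With nearly equal levels in Cd3-positive barcodes of the libraries, its ratio was 26.4-fold and 3.83-fold. Gimap5 was at 4.17 and 11.6 CPM in C1q macrophages, with ratios of 20.8-fold and 4.98-fold. In contrast, Gimap3 was at 8.35 and 8.44 CPM in the C1q macrophages of the libraries.

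C1q macrophages had been chosen for 0 Cd3 UMIs, yet they held RNA of other T cell genes. Trac, Trbc1, Trbc2, Cd2, Lck and Cd28 together were at 62.6 and 139 CPM in C1q macrophages, against 1006 and 891 in Cd3-positive barcodes. There were 0.592 and 0.569 Gimap UMIs per UMI of these T cell genes in Cd3-positive barcodes of replicates 1 and 2. The ratio was 0.625 and 0.689 in C1q macrophages. As a share of both sets, Gimap UMIs made up 37.2% (33.1 to 41.5) and 36.3% (33.2 to 39.4) in Cd3-positive barcodes and 38.5% (31.6 to 45.7) and 40.8% (34.3 to 47.6) in C1q macrophages. The Gimap genes and the T cell genes were thus present in nearly the same proportion in both classes, and both were higher in macrophages of replicate 2. The part of T cell RNA in the macrophage level was not tested.

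The reverse held too: Cd3-positive barcodes contained 6504 and 4671 CPM of C1qa, C1qb and C1qc, macrophage genes. The 39 and 96 Cd3-positive barcodes with at most 1 C1q UMI held 1192 (944 to 1486) and 673 (547 to 820) Gimap CPM. The 72 and 166 with at least 5 C1q UMIs held 434 (357 to 521) and 448 (389 to 512). The Gimap level was higher at low C1q in both libraries, with intervals that did not overlap. The 6 T cell genes moved alongside, at 1660 and 1408 CPM at low C1q and 841 and 716 at high C1q. The median depth was 1228 and 1257 UMIs per barcode at low C1q against 2708 and 2450 at high C1q. The part of macrophage RNA and of depth in this split was not tested.

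Cd3-positive barcodes with and without Cd8 UMIs had close Gimap levels. Barcodes with a Cd8a or Cd8b1 UMI (27 and 133) held 610 (455 to 803) and 505 (432 to 588) Gimap CPM, and those without (88 and 171) held 591 (500 to 694) and 508 (436 to 590). In edgeR's quasi-likelihood test, which compared these sums over both libraries with the library as a block, 0 of the 7 members tested differed after Benjamini-Hochberg adjustment, and 0 had an unadjusted p under 0.05. DESeq2 also called 0 members. Of all 5081 genes tested, 0.0394% were called (2 genes: Cd8a and Cd8b1, which defined the split). The median log2 fold change was -0.11 over the members and -0.05 over all genes. Gimap5 was at 35.9 (7.4 to 105) and 60.5 (37.0 to 93.5) CPM with Cd8 and at 104 (67.8 to 152) and 55.2 (33.2 to 86.2) without. Its log2 fold change was -0.73 (95% interval -2.01 to 0.55), which leaves room for a difference of several-fold in the lower direction.

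Barcodes with a UMI of an inhibitory receptor gene (Pdcd1, Lag3, Havcr2, Tigit or Ctla4) or of Tox, a regulator of exhausted T cells, held 712 (574 to 874) and 511 (434 to 597) Gimap CPM, and those without held 522 (428 to 631) and 504 (434 to 582). With a UMI of the cell cycle genes Mki67, Top2a, Birc5 or Ube2c the levels were 548 and 494, and without one 629 and 516. In both of these splits the intervals of the summed level overlapped within both libraries, and no test was made. Among single members, Gimap1 in replicate 1 was at 178 (113 to 267) CPM with an inhibitory receptor or Tox UMI and 63.5 (33.8 to 109) without, so its intervals did not overlap. In replicate 2 they did, at 93.8 (62.8 to 135) and 71.2 (46.5 to 104). A barcode without a UMI of a marker can still come from a cell that expresses it.

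**Figure D3:**
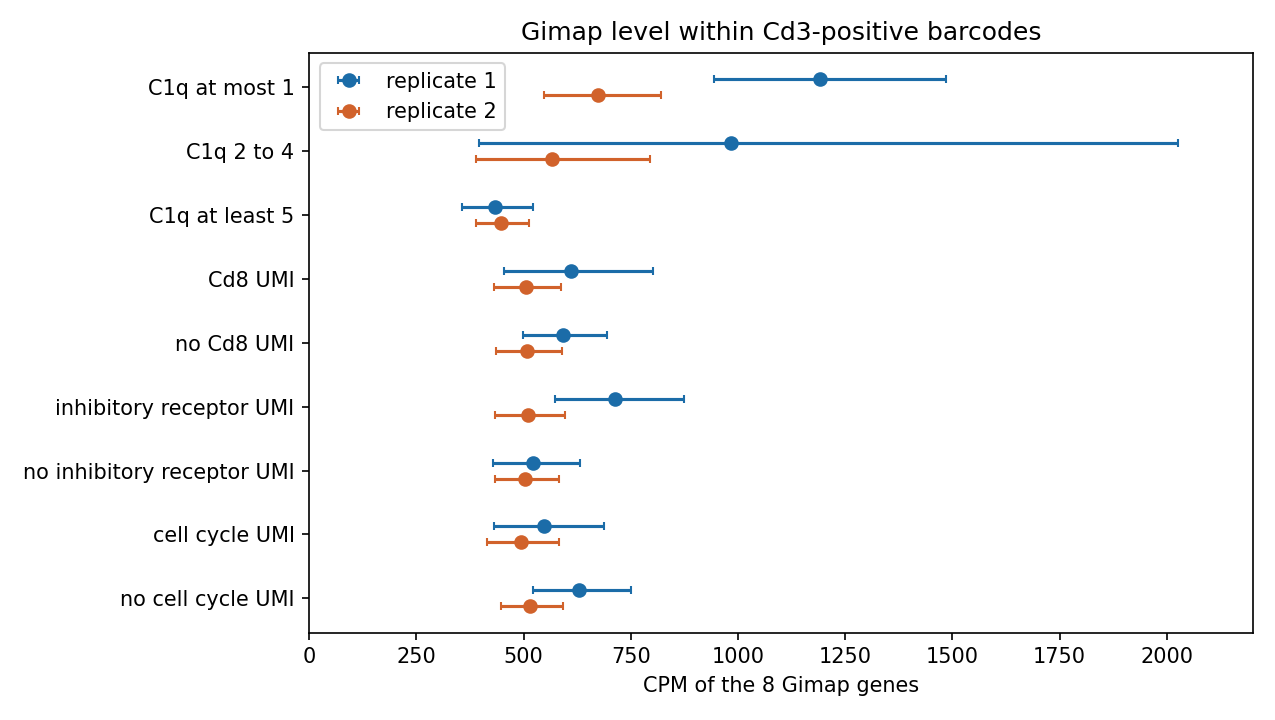
Gimap CPM (horizontal axis) in Cd3-positive barcodes split by other UMIs they held, 1 point per library with its exact Poisson 95% interval. The level at C1q at most 1 was 1192 and 673 against 434 and 448 at C1q at least 5, whereas the Cd8, inhibitory receptor and cell cycle splits overlapped for the summed level.

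Ptprc-negative barcodes held less RNA of most members than C1q macrophages. In edgeR's quasi-likelihood test, 6 of the 7 members tested were lower in Ptprc-negative barcodes after Benjamini-Hochberg adjustment over all genes, where 39.8% of the 7092 genes tested were called and 23.0% were lower. When the fit held these 2 classes alone, 3 members (Gimap1, Gimap3 and Gimap4) passed the filter on low counts, and all 3 were lower. The other 4 of the 7 (Gimap5, Gimap6, Gimap7 and Gimap9) passed it through further classes. Among these were Cd3-positive barcodes, for whose high level the family had been picked. The count of 6 of 7 and the p-values of these 4 members are therefore no support by themselves. Gimap8, at 6 and 1 UMIs in C1q macrophages and 0 in Ptprc-negative barcodes, did not pass the filter on low counts. The median log2 fold change was -3.38 over the 7 members and 0.02 over all genes. With Gimap3, which had 0 UMIs in both Ptprc-negative sums, set at its bound, the members' median was -2.82. Both of the members' medians include the 4 that entered through further classes, so they are a description and no support. Since the macrophage values carry T cell gene RNA in the proportion given above, how much of these differences came with that RNA was not tested.

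Gimap4 was at 0.496 and 1.74 CPM in Ptprc-negative barcodes and at 8.87 and 29.5 in C1q macrophages. Its log2 fold change was -3.66 (SE 0.65, adjusted p = 5.05e-07 by edgeR), and both Ptprc-negative values lay below both macrophage values. Gimap1 was at 0.496 and 0 against 5.22 and 10.6, with a log2 fold change of -4.29 (SE 0.96, adjusted p = 7.8e-05 by edgeR). The Ptprc-negative side rested on 1 UMI in replicate 1 (10.5-fold lower, 95% interval 1.5 to 456) and 0 in replicate 2 (at least 10.1-fold lower, with 3 counts as the floor). Gimap3 was at 0 in both Ptprc-negative sums and at least 5.61-fold and 8.08-fold lower than in macrophages of replicates 1 and 2, taking 3 counts per library as the floor (adjusted p = 4.73e-06 by edgeR). Gimap5 was at 0.496 and 1.04 against 4.17 and 11.6, a log2 fold change of -2.82 (SE 0.83, adjusted p = 0.00308 by edgeR). Gimap7 was at 0 and 0.696 against 3.65 and 7.39, a log2 fold change of -3.38 (SE 0.99, adjusted p = 0.00305 by edgeR). Gimap5 and Gimap7 had entered the test through further classes, so their p-values are given as a description. In these 5 members, the highest Ptprc-negative value was lower than the lowest macrophage value.

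Gimap6 behaved differently in the 2 libraries. It was at 2.48 (0.806 to 5.79) CPM in Ptprc-negative barcodes and 2.61 in C1q macrophages of replicate 1, and at 0.348 (0.00882 to 1.94) and 19.0 in replicate 2. The fit, which Gimap6 had entered through further classes, gave a log2 fold change of -2.56 (SE 0.77, adjusted p = 0.00378 by edgeR). The difference rested on replicate 2. With a small count added to each sum, the log2 value of Gimap6 was -0.07 in replicate 1 alone and -5.22 in replicate 2 alone. In replicate 2 the Ptprc-negative side was 1 UMI, and the raw counts gave a level 54.5-fold lower (95% interval 8.61 to 2272). DESeq2 did not call Gimap6 (adjusted p = 0.195), nor did the edgeR fit without the library block (adjusted p = 0.0592).

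Gimap9, which had also entered the test through further classes, was the member that did not pass it. It had 8 and 12 UMIs in Ptprc-negative barcodes, or 3.97 (1.71 to 7.82) and 4.18 (2.16 to 7.3) CPM, against 3.13 and 8.44 CPM in C1q macrophages. Its log2 fold change was -0.18 (95% interval -1.6 to 1.24, adjusted p = 0.867 by edgeR), given as a description. By raw counts, its macrophage level was 0.789 times the Ptprc-negative level in replicate 1 (95% interval 0.226 to 2.59). In replicate 2 it was 2.02 times that level (0.716 to 5.37). Gimap9 made up 50% (24.7 to 75.4) and 52.2% (30.6 to 73.2) of the Gimap UMIs of Ptprc-negative barcodes. Its share was 7.04% (3.9 to 11.5) and 5.56% (3.38 to 8.54) in Cd3-positive barcodes and 8.0% (2.99 to 16.6) and 8.79% (3.87 to 16.6) in C1q macrophages. The interval for Ptprc-negative barcodes lay above the others in both libraries.

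The 8 and 12 Gimap9 UMIs of Ptprc-negative barcodes each lay in a different barcode. None of these barcodes held another Gimap UMI, and 0 and 1 of them held a UMI of the 6 T cell genes. At the ratio of Gimap9 to these T cell genes found in Cd3-positive barcodes, the 2 and 23 T cell gene UMIs of the Ptprc-negative sums would go with 0.0833 and 0.727 Gimap9 UMIs. The other 7 members had 8 and 11 UMIs there, and the same reckoning gives 1.1 and 12.4. Gimap9 lay above the count at the T cell ratio in both libraries, and the other members lay above it in replicate 1 and below it in replicate 2. The reckoning for replicate 1 rests on 2 T cell gene UMIs, and none of these values has an interval. The part of T cell RNA in these counts was not tested. Of the 8 and 12 barcodes with Gimap9, 0 and 1 held a UMI of the endothelial markers, which had 10 and 51 UMIs in the whole class. A UMI of the fibroblast markers Col1a1, Col1a2, Col3a1, Dcn or Pdgfra was held by 6 and 10 of them. Over all Ptprc-negative barcodes, 443 of 536 and 631 of 851 held one. The barcodes with Gimap9 were few in this class, and each rests on a single molecule.

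**Figure D4:**
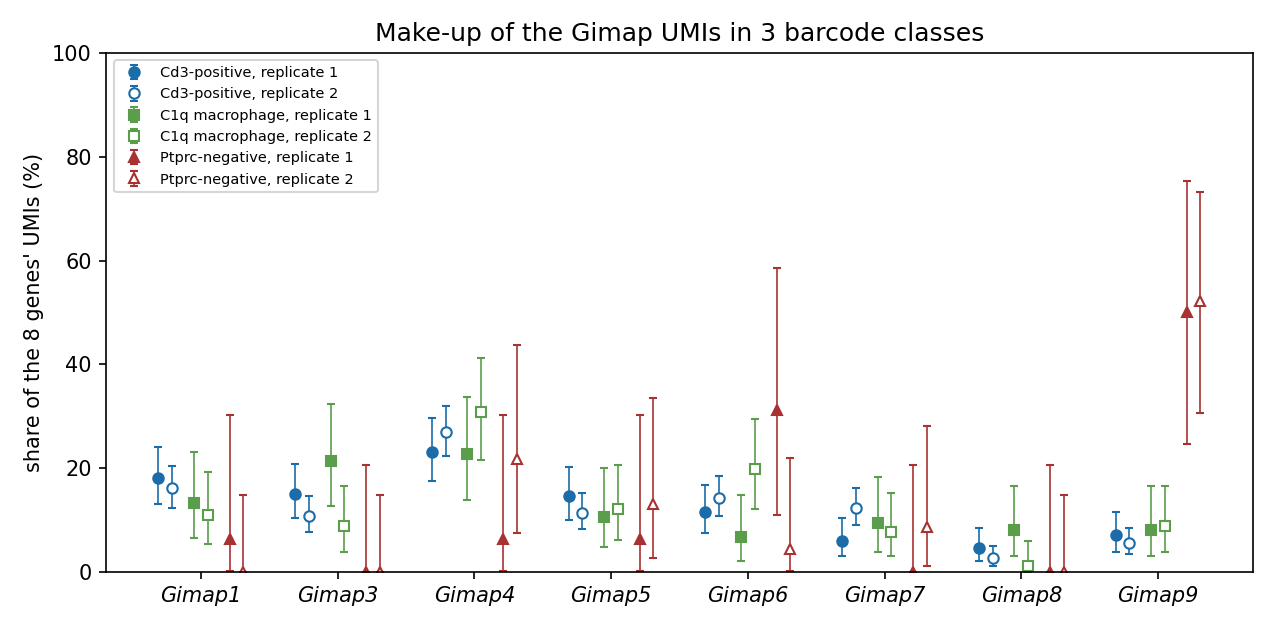
Share of the Gimap UMIs that each gene contributed (vertical axis, %) in Cd3-positive, C1q macrophage and Ptprc-negative barcodes of each library, with exact binomial 95% intervals. Gimap9 contributed 50% and 52.2% in Ptprc-negative barcodes and between 5.56% and 8.79% in the other classes.

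In other dendritic barcodes against C1q macrophages, 0 of the 7 members tested were called by edgeR and 0 had an unadjusted p under 0.05, where 0.324% of 7092 genes were called. In neutrophils against C1q macrophages, 0 of 7 were called by edgeR and 0 had an unadjusted p under 0.05, where 0.931% of genes were called. DESeq2 called 0 members in both. When the fit held only the 2 classes, 1 member passed the filter on low counts for neutrophils and no member did for other dendritic barcodes. The rest had entered through further classes, among them Cd3-positive barcodes, for whose high level the family had been picked. These counts of 0 are therefore no evidence of equal levels. With 1 to 4 Gimap UMIs in each of these sums, a difference was not detectable at this depth. The planned comparison of Siglech-positive with other dendritic barcodes was not made, because replicate 2 had 9 Siglech-positive barcodes and 10 were required.

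Other genes tied to the family were compared in Ptprc-negative barcodes against C1q macrophages, the contrast with most calls. Of 21 genes for Gimap partners and lymphocyte survival, all 21 were tested, 9 were lower and 1 was higher, with a median log2 fold change of -1.11. Il7r, the receptor of the survival cytokine interleukin 7, had 1 and 0 UMIs in Ptprc-negative barcodes against 36 and 33 in macrophages (log2 fold change -6.14, SE 0.84). Il2rg and Il2rb, chains of cytokine receptors, had log2 fold changes of -4.36 and -3.87. Gabarap, an Atg8-type protein, was lower by less, at -1.11, and Bad, which promotes cell death, was higher at 1.02. Of 15 genes for quiescence and recirculation, which again include Il7r, 9 were tested and 7 were lower, with a median of -4.0, or -2.6 with the gene at 0 UMIs set at its bound. That gene was Ccr7, the lymph node homing receptor, at least 5.96-fold and 11.1-fold lower. Slfn2, a factor of T cell quiescence, had a log2 fold change of -5.07, and Btg2, which restrains proliferation, had -4.0.

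Of 12 lymphocyte transcription factors, 5 were tested, 3 were lower and 1 was higher, with a median log2 fold change of -5.08. Ikzf1, a regulator of lymphocyte development, had a log2 fold change of -5.41, Runx3, which promotes cytotoxic T cell fate, had -5.1, and Fli1, an ETS factor of blood cells, had -5.08. Ets1, an ETS factor also found outside lymphocytes, was higher at 1.23 (SE 0.45, adjusted p = 0.0211 by edgeR). Over all 7092 genes tested the median was 0.02, and 23.0% were lower. No list was tested as a set. The Ptprc-negative gate selected against leukocyte RNA, so lower levels of leukocyte genes in these lists were not independent of it.

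Of the protein-coding neighbours of the cluster, the Tmem176 pair had another order of levels than the Gimap genes. Tmem176b and Tmem176a, membrane proteins known from dendritic cells and macrophages, are the next such genes beyond Gimap3. They were at 237 and 88.9 and at 105 and 37.1 CPM in Cd3-positive barcodes. In C1q macrophages they were at 278 and 134 and at 174 and 87.6, higher in each library, although the intervals of Tmem176b overlapped. A list of 11 genes had been drawn up as neighbours, but Aoc1, Kcnh2, Nos3, Atg9b and Abcb8 do not lie within 100 kb of the cluster. Of the 11, 2 were tested between Ptprc-negative barcodes and macrophages. Both were lower, with log2 fold changes of -2.31 for Tmem176b and -2.19 for Tmem176a. Their Ptprc-negative levels differed between the libraries, at 109.7 and 3.83 CPM for Tmem176b and 66.5 and 4.88 CPM for Tmem176a, so the gap to macrophages was wider in replicate 2. Repin1 and Zfp775, DNA-binding zinc finger proteins on the other side of the cluster, had 1 to 3 UMIs each in Cd3-positive barcodes.

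**Figure D5:**
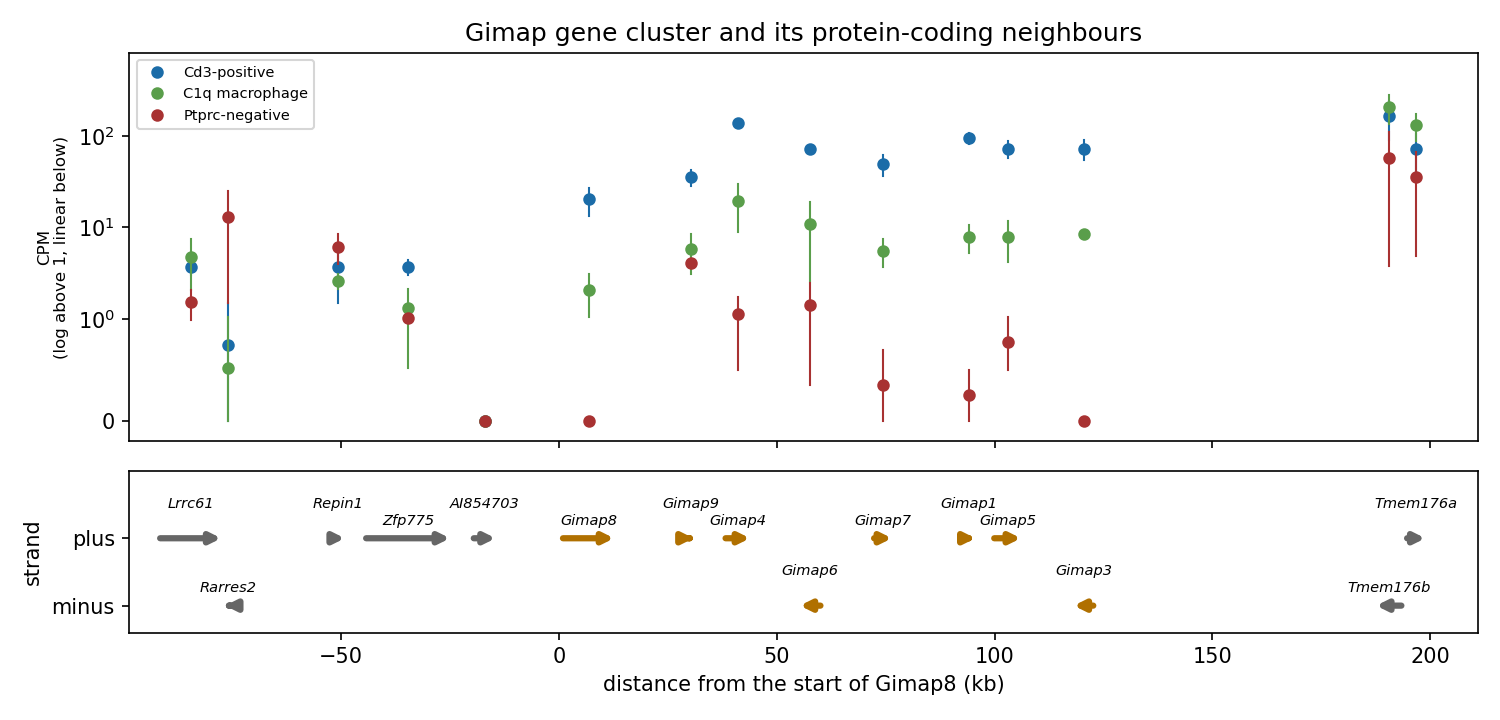
Mean level over both libraries (upper panel, CPM, log above 1 and linear below) of the Gimap genes and their protein-coding neighbours, with bars that span both libraries, against distance from the start of Gimap8 in kb, with the genes' strands in the lower panel. Gimap genes are higher in Cd3-positive barcodes (Gimap4 at 137), whereas Tmem176b and Tmem176a to their right are higher in C1q macrophages.

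Across the 14 class sums of both libraries, each member's level was compared with the sum of the other 7 (Pearson correlation of log2(CPM + 10)). The correlation ran from 0.286 for Gimap8 and 0.497 for Gimap6 to 0.755 for Gimap7 and 0.8 for Gimap1. Of 6875 genes outside the family and the gate markers with at least 100 UMIs, the 10 most like the summed family were Trbc2 (0.877), Arhgef1 (0.874), Klrc1, Xcl1, Gzmb, Ms4a4b, Serpina3g, Nkg7, B4galnt1 and Il2rb (0.803). Trbc2 encodes a constant part of the T cell receptor, Klrc1 an NK cell receptor, Gzmb a granzyme and Nkg7 a protein of cytotoxic granules. Trbc2 was at 311 and 371 CPM in Cd3-positive barcodes and at 347 and 326 in Ncr1-positive ones. Sums from 1 library share its preparation and depth, and the smallest come from a handful of barcodes, so the correlations are a description. Since the family was taken up for its level in T and NK cells, genes of these cells at the top are no separate finding.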

How the data were processed

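Per the file headers, the deposited values are raw UMI counts per gene and barcode from Cell Ranger 6.0.1. Seurat 4.0.1 and the build mm10 also appear in the submitters' processing notes. The gene annotation and the use made of Seurat were not given in the sources used here. Single-cell RNA was measured in 2 libraries of 1 group, with no label stating separate animals. By their Xist and Y-linked UMIs the libraries came from different animals, and how many animals each held is not given. The p-values measure only the scatter of these libraries' class sums that was left after the library block. They rest on 2 libraries that differ in sex and in animal, and they are no measure of the spread among animals in general. The members and gene lists were chosen with earlier results of these data known.

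Barcodes with at least 300 genes and under 10% mitochondrial UMIs were kept. Gates on raw UMIs, in order, were Cd3d, Cd3e and Cd3g at least 2 with no Ncr1; Ncr1 at least 1 with Cd3 at most 1; Siglech at least 2; at least 3 UMIs of 7 dendritic markers; S100a8 and S100a9 at least 10 with 2 neutrophil marker UMIs; C1qa, C1qb and C1qc at least 5 with no Cd3 or Ncr1 UMI; and no Ptprc UMI with at most 1 leukocyte UMI per 1000 and at least 1000 UMIs. Barcodes meeting the first 2 gates together (2 and 1) were set aside. No doublet caller was run. Barcodes in no class numbered 664 and 975.

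Counts were summed per library and class. Classes with at least 10 barcodes in both libraries entered edgeR 4.0.16 (R 4.3.3; TMM, filterByExpr, glmQLFit and glmQLFTest), with library as a block, since classes come from the same library, and Benjamini-Hochberg adjustment at 0.05 over all genes. The planned comparisons, Cd3-positive against Ncr1-positive and Siglech-positive against other dendritic barcodes, fell short of 10 barcodes and were not made. The script was tested on simulated data. DESeq2 1.42.0 was an alternative. Python 3.11.15, numpy 2.4.6, scipy 1.17.1 and pandas 2.3.3 gave levels and intervals. Named genes were all members, up to 10 called list genes a contrast by size (others named, such as Bad, Gabarap, Ets1 and the neighbours, were chosen after their values were seen) and the 10 genes most correlated with the family. Some genes that the rule covers are not reported here.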

Additional observations from a re-analysis of the deposited data

Results flagged for a closer look

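Barcodes that met no gate lay outside the comparisons and still held Gimap RNA, at 129.6 CPM in replicate 1 and 217.3 in replicate 2, above the 7.94 and 8.01 of Ptprc-negative barcodes. Of their 122 and 249 Gimap UMIs, 65.6% (95% interval 56.4 to 73.9) and 66.7% (60.4 to 72.5) lay in the 114 and 269 barcodes with a single Cd3 UMI, which is 1 short of the gate. The level in those barcodes was 350 and 404 CPM, against 59.0 and 113 in the barcodes with 0 Cd3 UMIs. Gimap1os, the transcript on the strand opposite Gimap1, is no member of the family and was detected in Cd3-positive barcodes at 17.97 CPM in replicate 1 and 16.31 in replicate 2. It had 0 and 1 UMIs in Ptprc-negative barcodes. Whether its UMIs and those of Gimap1 were separated by strand is not given in the sources used here.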

How the results depend on the processing

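Between Ptprc-negative barcodes and C1q macrophages, 2826 genes were called by edgeR. The count was 1813 with no replicate block, 1629 with a Cd3 gate of at least 3 UMIs and 1882 with a Siglech gate of at least 1 UMI (added after seeing the data). Members lower there numbered between 3 and 6 over the alternatives, since some left as few as 3 members tested. Gimap6 alone lost its call, with no replicate block (log2 fold change -2.57, adjusted p = 0.0592 by edgeR) and in DESeq2 (-2.09, adjusted p = 0.195).

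The count for other dendritic barcodes was 23. It was 2 with no replicate block, 41 with only the 2 classes compared, 13 with a Cd3 gate of at least 3 UMIs and 15 with a Siglech gate of at least 1 UMI. For neutrophils it was 66. It was 2 with no replicate block, 28 in DESeq2, 24 with only the 2 classes, 38 and 14 with Cd3 gates of at least 1 and 3 UMIs, 22 with all barcodes, 30 with low-C1q lymphocytes and 20 with the Siglech gate. For the Cd8 split it was 2. It was 1 with no replicate block, 0 in DESeq2 and 7 with no filter on low counts. In these comparisons 0 members were called under any alternative run, but some alternatives left few members to test. With only the 2 classes compared, 1 member was tested for neutrophils and no member for other dendritic barcodes. The Cd8 split with a Cd3 gate of at least 3 UMIs tested 3 members. The Siglech-positive comparison could be fitted under 3 alternatives, with 0 members called in each. The cause of the changes was not tested. With 1 library there are no residual degrees of freedom, so leaving out a library gives values and no test.

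The Gimap level in Cd3-positive barcodes (551 CPM) was 433 with a Cd3 gate of at least 1 UMI, 933 with at most 1 C1q UMI and 632 after thinning. In Ncr1-positive barcodes (790.0) it was 1146 at low C1q. In Siglech-positive barcodes (165) it was 199.5 with a Cd3 gate of at least 3 UMIs, 67.9 at low C1q, 124 with the Siglech gate and 62.5 after thinning. In other dendritic barcodes (73.4) it was 0 at low C1q and 24.0 after thinning. In neutrophils (mean 100) it was 13.8 with a Cd3 gate of at least 1 UMI and 41.7 after thinning. In Ptprc-negative barcodes (7.97) it was 7.91 with a Cd3 gate of at least 1 UMI and 10.2 after thinning. The order of the mean levels of Cd3-positive, C1q macrophage and Ptprc-negative barcodes held under every alternative run.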
